A study of Mus musculus with 3 samples.

Results

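The genes that encode the collagen chains of the mouse were followed across the cells of fetal thymus cultures. The members were chosen by name alone, as every gene symbol made of Col, a number, a and a number, and 44 of the 32285 genes measured carried such a symbol. Single-cell RNA sequencing was run on 1 lane that held 2 pools of cells, collected on day 13 of culture. The FTOC pool came from intact lobes of fetal thymus grown as fetal thymic organ cultures. The ORFTOC pool came from organoid reaggregates, in which thymic epithelial cells (TECs) grown as organoids were mixed with fetal thymus cells depleted of EpCAM-positive cells and with cultured wild-type mouse embryonic fibroblasts (MEFs). In the study the organoid TECs came from older embryos than the intact lobes and the EpCAM-depleted cells. Pool, embryo age and organoid culture of the TECs therefore could not be told apart. Reaggregation and the added MEFs also went with the ORFTOC pool alone, so for mesenchymal cells too they could not be told apart from pool. Mice of both pools were wild type and untreated, and cells of each pool carried their own hashtag antibody. Each pool mixed 2 cultures that could not be told apart, so each pool was 1 sample, no test between pools was possible, and all intervals below are 95% intervals that cover counting error only. The sources used here do not mark which ORFTOC mesenchymal cells had been MEFs and which had come with the fetal thymus.

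Collagens are proteins of 3 chains wound into a triple helix, and most are secreted into the extracellular matrix. Fibrillar collagens form the tension-bearing fibres of connective tissue, network collagens such as type IV form the sheets of basement membranes, and further classes coat fibres, form beaded filaments or anchor cells. In the thymus, mesenchymal cells of the capsule and septa are a known source of fibrillar collagens, and TECs rest on basement membranes.

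Promoter sequence is shown for 4 genes on which the results turn, the fibrillar genes Col1a2 and Col3a1 and the pair Col4a1 and Col4a2, whose transcripts start head to head. Each line gives the 250 bases before the RefSeq start, read 5′ to 3′ along the gene in GRCm38.p6. Capitals mark the letters CCAAT or, on the other strand, ATTGG, and the letters TATAAA or, on the other strand, TTTATA.
Col1a2 (chr6:4505368-4505617, plus strand): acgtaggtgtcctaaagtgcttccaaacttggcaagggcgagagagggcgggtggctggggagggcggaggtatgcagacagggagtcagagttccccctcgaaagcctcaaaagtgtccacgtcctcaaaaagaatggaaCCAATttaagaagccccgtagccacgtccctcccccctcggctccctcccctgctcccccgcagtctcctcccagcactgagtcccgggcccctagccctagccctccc
Col3a1 (chr1:45311288-45311537, plus strand): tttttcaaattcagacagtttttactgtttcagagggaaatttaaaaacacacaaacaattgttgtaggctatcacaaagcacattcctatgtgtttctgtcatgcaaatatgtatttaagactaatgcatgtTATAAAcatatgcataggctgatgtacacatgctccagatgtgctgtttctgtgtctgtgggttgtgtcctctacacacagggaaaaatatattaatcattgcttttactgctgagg
Col4a1 (chr8:11312827-11313076, minus strand): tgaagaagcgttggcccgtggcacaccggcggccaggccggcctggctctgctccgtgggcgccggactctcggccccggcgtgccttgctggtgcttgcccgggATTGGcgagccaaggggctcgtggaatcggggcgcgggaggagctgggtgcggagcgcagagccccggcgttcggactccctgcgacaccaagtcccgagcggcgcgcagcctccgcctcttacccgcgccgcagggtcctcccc
Col4a2 (chr8:11312555-11312804, plus strand): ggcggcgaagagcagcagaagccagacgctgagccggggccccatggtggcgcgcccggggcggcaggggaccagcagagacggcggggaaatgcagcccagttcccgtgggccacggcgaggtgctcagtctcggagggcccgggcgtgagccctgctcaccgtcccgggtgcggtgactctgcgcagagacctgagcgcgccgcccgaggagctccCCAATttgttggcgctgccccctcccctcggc

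By the RefSeq starts used for these windows, the transcripts of Col4a1 and Col4a2 overlapped by 22 bases, so that each window reaches into the other gene. The windows of Col4a1 and Col4a2 had 74.4% and 73.6% G or C, that of Col1a2 62.0% and that of Col3a1 35.2%. Windows were found for 35 of the 44 members, 38 windows in all. CCAAT in either direction was present in 13 of these 38 windows (34.2%) and in 33.8% of all 32851 promoters of the same length. TATAAA was present in 5 of 38 (13.2%) and in 12.4% of all promoters. Both shares in the collagen windows were close to those of promoters at large, and a match in this window is a description only.

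After filtering, 8392 cells were kept, 4144 from FTOC and 4248 from ORFTOC. No cell barcode was shared by both pools. Clustering was run without the collagen genes and gave 1 mesenchymal cluster of 267 cells (55 FTOC and 212 ORFTOC), 2189 epithelial cells (962 and 1227) and 5936 immune cells (3127 and 2809). Mesenchymal cells were 1.33% of FTOC cells and 4.99% of ORFTOC cells. They held a median of 15673 unique molecular identifiers (UMIs) in FTOC and 19627.5 in ORFTOC, the epithelial cells 12133.5 and 13347, and the immune cells 2486 and 5316. Levels are given as UMIs per 1000000 UMIs of the same cells (CPM). The 5′ kit counts each transcript once at its start, so CPM was not divided by gene length.

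The mesenchymal label held against its markers. All 11 genes of the mesenchymal list, among them Pdgfra, Dcn and Postn, were detected in both pools and summed to 10190 CPM in FTOC and 7378 CPM in ORFTOC. The mural list, genes of pericytes and smooth muscle, was also high, at 2862 and 2927 CPM. Behind these sums the members differed, with Rgs5 (123 and 34.8 CPM), Abcc9 (242 and 52.9), Kcnj8 (250.2 and 74.6), Notch3 (143 and 70.1), Myh11 (107 and 42.4) and Mcam (44.3 and 15.7) lower in ORFTOC and Acta2 (893 and 1336), Tagln (1057 and 1283) and Cspg4 (3.09 and 17.4) higher. Of the 8 endothelial genes Cdh5, Tie1, Esam and Cldn5 were at 0 in both pools, and the list summed to 15.4 and 11.6 CPM. Genes of Schwann cells (2.06 and 0.645 CPM) and of mesothelium (4.12 and 7.31 CPM) were near 0. The epithelial list stood at 177 and 186 CPM and the immune list at 51.5 and 127 CPM.

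Collagen transcripts were overwhelmingly mesenchymal. Of 197092 collagen UMIs, 91.7% (interval 91.5 to 91.8%) lay in the mesenchymal cells, which were 3.18% of all cells. Epithelial cells held 7.54% and immune cells 0.797%. Within mesenchymal cells, collagens made up 3.38% of all UMIs in FTOC and 3.18% in ORFTOC. The corresponding epithelial levels were 541 CPM and 470 CPM, and the immune levels 54.2 and 34.2 CPM. Every mesenchymal cell held collagen UMIs, and the lowest, median and highest share of a cell's UMIs were 0.735%, 2.84% and 11.7% in FTOC and 0.604%, 2.42% and 14.6% in ORFTOC. The range of the FTOC cells thus lay within that of the ORFTOC cells. A mesenchymal cell had UMIs of 10 to 25 different collagen genes, with a median of 17 in both pools.

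Free RNA was measured in near-empty droplets. In 51276 barcodes with 10 to 100 UMIs, which hold too little RNA for a cell, collagens stood at 855 CPM. Immune cells held 42.8 CPM, that is 0.0501 of the free RNA level. The collagen level of immune cells as a group was thus far under that of the near-empty barcodes, so the free RNA level is given below as a reference and not as the level that a cell without expression would show.

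**Figure D1:**
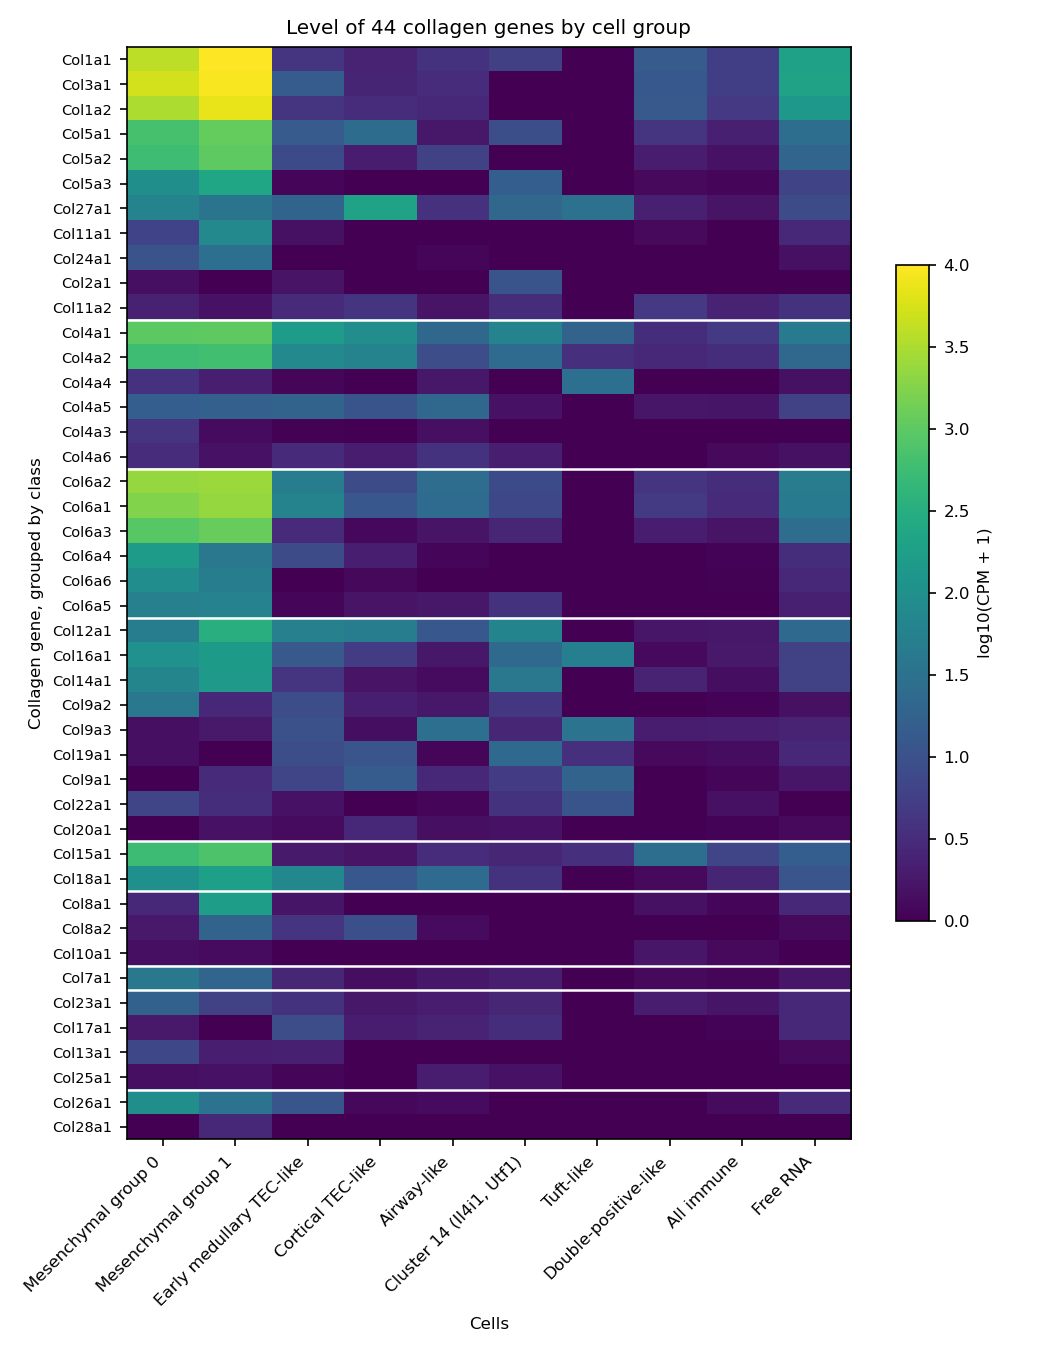
Level of each of the 44 collagen genes (rows, grouped by class from fibrillar at the top to other at the bottom) in mesenchymal, epithelial and immune cells and in free RNA (columns), as log10(CPM + 1) from both pools summed. The 2 mesenchymal columns are brightest for Col1a1, Col3a1 and Col1a2, while Col27a1 is brightest in the cortical TEC-like column.

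All 44 collagen genes were detected in the mesenchymal cells, and 32 of them had at least 10 UMIs. The 11 fibrillar genes held 72.1% of the mesenchymal collagen UMIs, the 6 genes of type VI beaded filaments 18.2%, the 6 of type IV basement membrane networks 5.03%, the multiplexins Col15a1 and Col18a1 2.56% and the 9 fibril-associated genes 1.498%. The hexagonal network genes, the anchoring fibril gene Col7a1, the transmembrane genes and the others held under 1% each. In epithelial cells the order was different, with 36.8% of collagen UMIs from the basement membrane network genes, 17.8% from fibril-associated genes, 16.1% from fibrillar genes and 15.96% from beaded filament genes.

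Mesenchymal and epithelial levels were compared first. At a mean of at least 20 CPM over both cell types, 23 of the 44 members could be compared, and 22 of them were at least 2-fold higher in mesenchymal cells, where 12.7% of all 6657 genes passed the same limit. None of the 23 was at least 2-fold lower, a limit that 13.0% of all genes passed. Most of the 23 passed the filter only through their mesenchymal level, and the members at least 2-fold higher in epithelial cells fell under it, so these counts are a description of the members with a high level and not of the family. With no filter, 32 of 43 members with more than 3 UMIs in either cell type were at least 2-fold higher (18.6% of all genes) and 6 were at least 2-fold lower (21.9%), namely Col9a1, Col19a1, Col9a3, Col2a1, Col11a2 and Col17a1. With the filter, 23 of 24 members were higher within FTOC (14.6% of all genes) and 22 of 23 within ORFTOC (12.5% of all genes). The mesenchymal excess was widest for Col1a1 (2765-fold, interval 2232 to 3467), the chain present in 2 copies in type I collagen, and its partner Col1a2 (2337-fold, 1858 to 2982). For Col6a6, a chain of type VI with 1 epithelial UMI, the ratio was 1888 with an interval of 337 to 74765. For Col3a1, the only chain of type III collagen, it was 905-fold (799 to 1030), and for Col6a3, a further chain of type VI, 753-fold (559 to 1042). At the other end, Col4a1 and Col4a2 were 9.06-fold and 10.8-fold higher, Col12a1 4.88-fold and Col18a1 3.23-fold. Col27a1, a fibrillar collagen, was the member of the 23 that was not called, at 0.954 of the epithelial level (0.830 to 1.09) over both pools. The pools went opposite ways for it, with a ratio of mesenchymal over epithelial cells of 2.07 (1.42 to 2.96) in FTOC and 0.683 (0.587 to 0.792) in ORFTOC. In FTOC the member not called was Col4a5, at 1.12 (0.680 to 1.75). Among members under the filter, the transmembrane collagen Col17a1, a hemidesmosome component of basal epithelium, had 2 mesenchymal and 143 epithelial UMIs, Col9a3 had 4 and 333, and Col19a1 had 1 and 221.

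The 3 most abundant fibrillar genes had ratios between pools near 1 over all mesenchymal cells, although their ratios went opposite ways within the mesenchymal groups described below (Col1a1 0.599 and 1.51, Col1a2 0.565 and 1.37, Col3a1 0.612 and 1.39). Col1a1 (chr11:94936224-94953042) stood at 6522 CPM (interval 6362 to 6684) in FTOC and 8081 CPM (7999 to 8163) in ORFTOC, a ratio of ORFTOC over FTOC of 1.24 (1.21 to 1.27). Col1a2 stood at 5219 and 5846 CPM, a ratio of 1.12 (1.09 to 1.15). Col3a1 stood at 7138 and 7603 CPM, a ratio of 1.07 (1.04 to 1.09). These 3 genes had UMIs in all 267 mesenchymal cells. The minor fibrillar chains Col5a1 and Col5a2, which take part in starting type I fibrils, stood at 1127 and 781 CPM in FTOC and 921 and 845 CPM in ORFTOC, ratios of 0.818 (0.765 to 0.875) and 1.08 (1.00 to 1.17). Col5a3 was lower in ORFTOC, at 159 CPM against 267 CPM, a ratio of 0.597 (0.518 to 0.691). The rarer Col11a1 (39.1 and 49.9 CPM) and Col27a1 (37.1 and 45.4 CPM) had ratios of 1.27 and 1.22, with intervals that included 1. As a class the fibrillar genes summed to 21149 CPM in FTOC and 23572 CPM in ORFTOC.

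Col4a1, Col4a2 and Col18a1, collagens of basement membranes, were lower in ORFTOC mesenchymal cells. Of the mural genes named above, Rgs5, Abcc9, Kcnj8, Notch3, Myh11 and Mcam were lower too, while Acta2, Tagln and Cspg4 were higher. The part of mural cells in the collagen ratios was not tested. Col4a1 and Col4a2, which together form the common type IV network, stood at 1720 CPM (1638 to 1804) and 974 CPM (913 to 1038) in FTOC and at 849 CPM (823 to 876) and 519 CPM (498 to 540) in ORFTOC. Their ratios were 0.494 (0.466 to 0.523) and 0.532 (0.494 to 0.574), on either side of the 2-fold limit. Cells with a UMI of Col4a1 were 98.2% in FTOC and 97.6% in ORFTOC, and after each cell had been thinned to 1000 UMIs 78.2% and 47.6%. Col18a1, whose C-terminal fragment is endostatin, stood at 326 and 114 CPM, a ratio of 0.350 (0.304 to 0.403). Its relative Col15a1 stood at 924 and 619 CPM, a ratio of 0.670 (0.622 to 0.723). Col7a1, the anchoring fibril collagen, stood at 45.3 and 23.0 CPM, a ratio of 0.508 (0.354 to 0.739), just short of the 2-fold limit. This pooled ratio joined opposite values in the groups described below.

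The type VI genes form beaded filaments around cells. The 3 common chains Col6a1, Col6a2 and Col6a3 stood at 2884, 3219 and 1546 CPM in FTOC and at 1951, 2270 and 995 CPM in ORFTOC. Their ratios were 0.676 (0.648 to 0.706), 0.705 (0.678 to 0.734) and 0.643 (0.607 to 0.682). The additional chains Col6a4 and Col6a6 had the wider gaps, with 164 against 72.7 CPM (ratio 0.444, 0.366 to 0.539) and 143 against 46.9 CPM (ratio 0.327, 0.263 to 0.408). Col6a5 went the other way in value, at 50.5 and 58.0 CPM, and its interval included 1 (0.846 to 1.59).

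Of the fibril-associated genes, which bind to the surface of fibres, Col12a1 had the largest ratio of all members past the filter, at 132 CPM in FTOC and 232 CPM in ORFTOC (1.76, 1.47 to 2.13). Col14a1 (90.6 and 116 CPM) and Col16a1 (108 and 138 CPM) had ratios of 1.28 and 1.27. Col26a1, which was not placed in the fibril-associated class, stood at 111 and 46.2 CPM, a ratio of 0.416 (0.328 to 0.529). Col8a1, a hexagonal network collagen, stood at 86.5 and 108 CPM (ratio 1.25, 0.987 to 1.59), but its UMIs came from 3 of 55 FTOC cells and 29 of 212 ORFTOC cells, with up to 97 UMIs in 1 cell.

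In all, 24 members passed the filter of a mean of 20 CPM over both pools. None was at least 2-fold higher in ORFTOC, against 1.15% of 6271 genes, and 5 were at least 2-fold lower, against 2.33%. The 5 were Col18a1, Col6a6, Col26a1, Col6a4 and Col4a1. The median log2 ratio was -0.40 for the 24 members and -0.09 for all genes. Because Col1a1, Col3a1 and Col1a2 held so much of the total, the summed collagen level hardly differed, at 33752 CPM in FTOC and 31796 CPM in ORFTOC, a log2 ratio of -0.09.

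**Figure D2:**
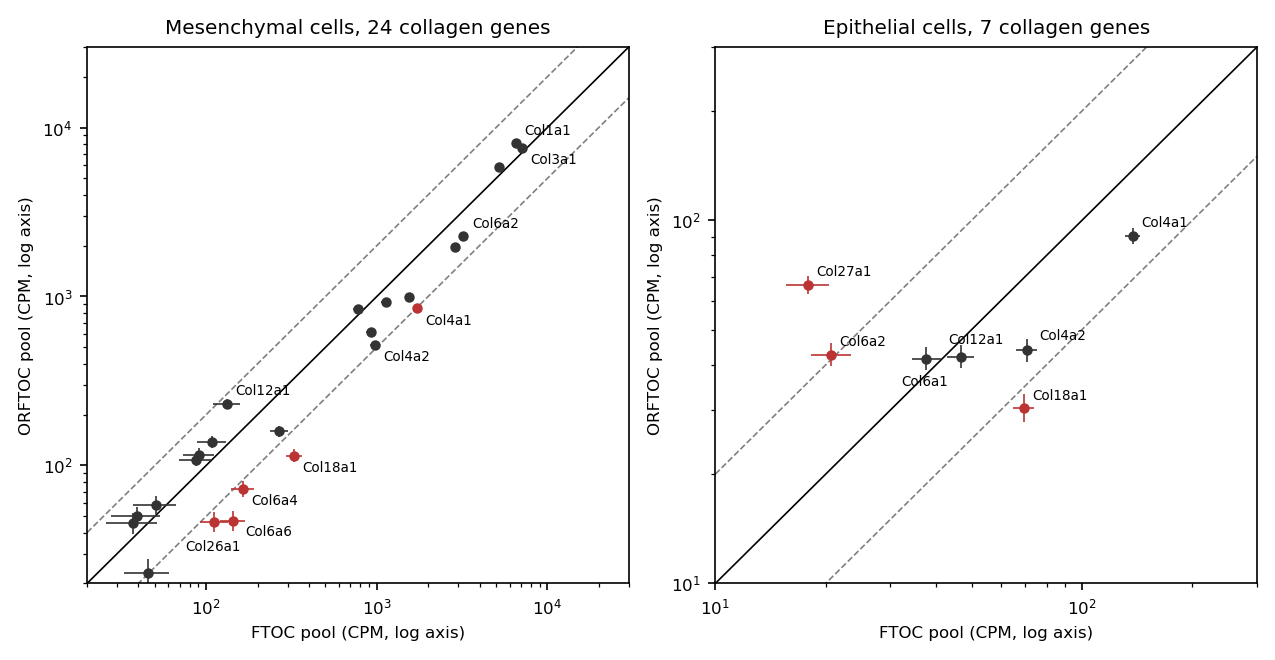
Collagen levels in the FTOC pool (horizontal, CPM, log axis) and the ORFTOC pool (vertical, CPM, log axis), for the 24 members past the filter in mesenchymal cells (left) and the 7 in epithelial cells (right). Bars are 95% counting intervals, the solid line is equality, dashed lines are 2-fold, and red points are at least 2-fold apart: 5 lower in mesenchymal cells, and in epithelial cells Col27a1 and Col6a2 higher and Col18a1 lower in ORFTOC.

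Sex-linked transcripts differed between the pools beside these ratios. RNA of Y-linked genes without Xist was found in 3 of 55 FTOC and 87 of 212 ORFTOC mesenchymal cells, and Xist without Y-linked RNA in 50 and 104. Among the Xist cells alone Col4a1 stood at 1869 CPM in FTOC and 825 CPM in ORFTOC, Col18a1 at 342 and 95.05 CPM and Col1a1 at 6274 and 7912 CPM. In the Y-linked ORFTOC cells Col4a1 stood at 904 CPM, Col18a1 at 132 CPM and Col1a1 at 8940 CPM. Col8a1 in Xist cells stood at 14.3 CPM in FTOC (12 UMIs) and 84.4 CPM in ORFTOC. Whether ORFTOC cells of either sex had been MEFs could not be told apart.

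A second clustering of the mesenchymal cells, again without collagen genes and chosen after seeing the data, gave 2 groups of nearly equal size. Group 0 (31 FTOC and 106 ORFTOC cells) was led by Cxcl13, Ccl19 and Madcam1, chemokines and an adhesion molecule of lymphoid stroma, with Clu and Mfge8. Group 1 (24 FTOC and 106 ORFTOC cells) was led by Spp1, Ccn3 and Timp3, with Ccn2, Timp1, Inhba and Acta2, smooth muscle actin. The mural list summed to 1113 CPM in group 0 and 4088 CPM in group 1. Acta2 (239 against 1923 CPM), Tagln, Cspg4 and Mcam were higher in group 1, while Rgs5, Abcc9, Kcnj8, Notch3 and Myh11 were lower. The groups are therefore called by number. Group 1 cells held a median of 25539 UMIs and group 0 cells 15416. Bpifa1, the leading gene of the airway-like epithelial cluster, was among the leading genes of group 1, and the airway-like list summed to 21.6 CPM in FTOC and 388 CPM in ORFTOC mesenchymal cells. The part of such transcripts in the results was not tested.

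**Figure D3:**
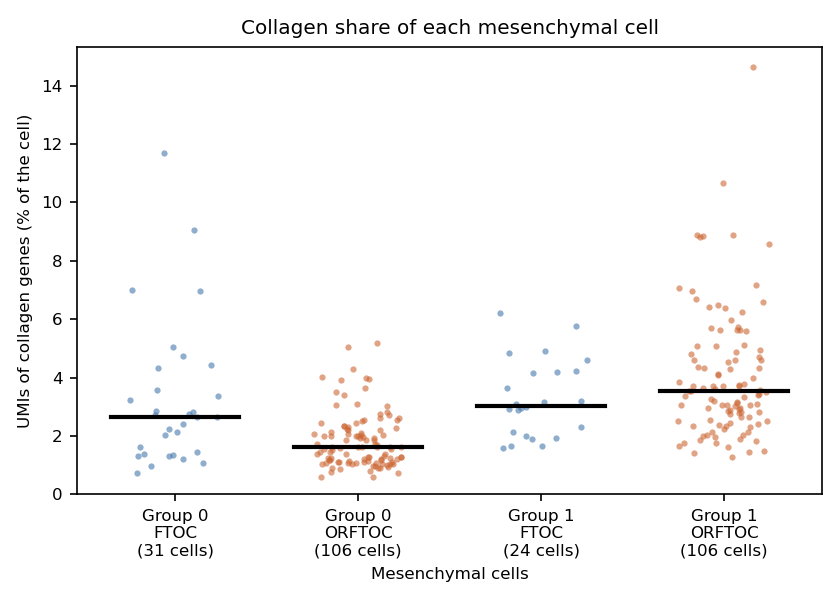
Share of each mesenchymal cell's UMIs that came from collagen genes (vertical, percent), by group and pool. Each point is 1 cell and each bar the median, at 2.64% and 1.62% in group 0 (FTOC and ORFTOC) and 3.03% and 3.52% in group 1; the 4 sets of cells overlap.

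Group 1 carried more collagen, at 3.88% of UMIs against 2.19% in group 0. Of 25 members past the filter, 7 were at least 2-fold higher in group 1, against 2.98% of 6199 genes, and 3 were at least 2-fold lower, against 4.94%. Col8a1 was almost restricted to group 1, with 581 UMIs there and 4 in group 0 (171 and 1.81 CPM, ratio 94.5, interval 36.7 to 348). Its UMIs lay in the few cells of each pool counted above. Col11a1 stood at 75.7 and 5.42 CPM (13.99, 7.87 to 27.4). Col12a1 stood at 323 and 48.7 CPM (6.63, 5.43 to 8.15). These 3 had the widest excess. The main fibrillar genes followed, with Col1a1 at 10260 and 4048 CPM (2.53, 2.48 to 2.59) and Col1a2 at 7393 and 3194 CPM (2.31, 2.25 to 2.38), and so did Col5a3 (2.40) and Col14a1 (2.18). Lower in group 1 were Col9a2, a chain of the fibril-associated type IX, with 6 UMIs against 86 (1.76 and 38.8 CPM, ratio 0.0454, 0.0162 to 0.103), Col6a4 (39.3 and 164 CPM, 0.240) and Col26a1 (32.9 and 95.2 CPM, 0.345). Over both pools Col4a1 did not separate the groups, at 1008 and 987 CPM (1.02, 0.968 to 1.08). Within FTOC it was 1.24-fold higher in group 1 (1.13 to 1.37), and within ORFTOC 1.03-fold (0.965 to 1.10).

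**Figure D4:**
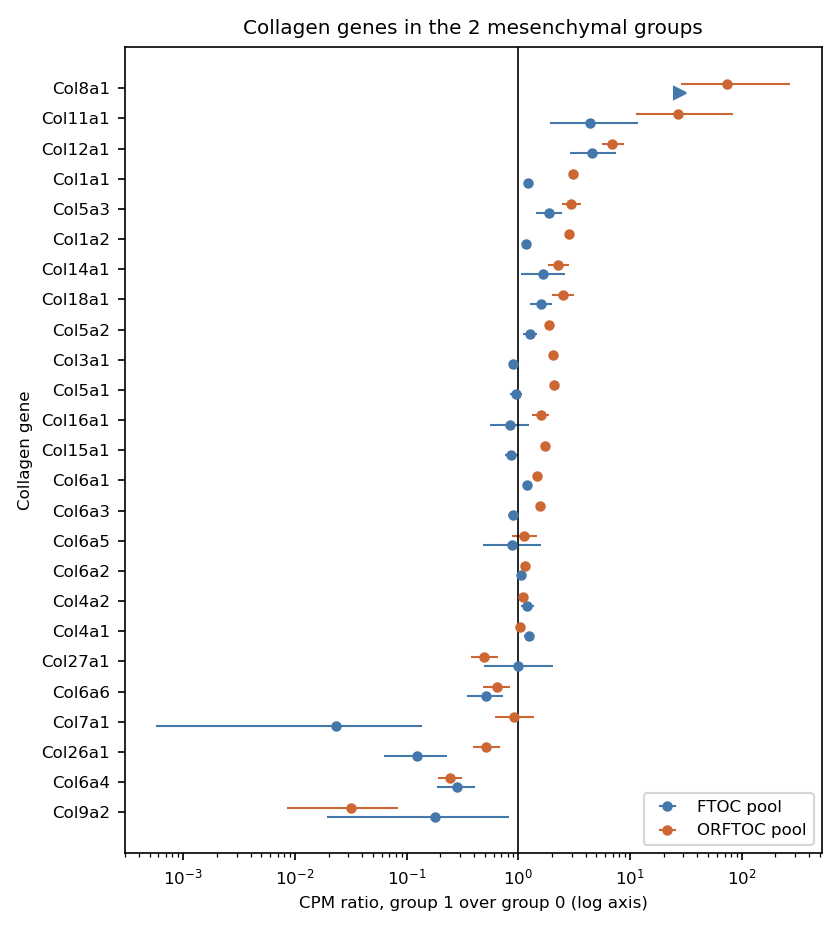
Ratio of each collagen gene's CPM in mesenchymal group 1 over group 0 (horizontal, log axis), in FTOC (blue) and in ORFTOC (orange), for the 25 members past the filter, with 95% counting intervals. The triangle for Col8a1 in FTOC is a lower bound, since group 0 had no UMI there; Col8a1, Col11a1 and Col12a1 lie to the right and Col9a2, Col6a4 and Col26a1 to the left of 1 in both pools.

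The difference between the groups depended on the pool for the abundant fibrillar genes. Col1a1 was 1.21-fold (1.15 to 1.28) higher in group 1 within FTOC and 3.05-fold (2.97 to 3.14) within ORFTOC. For Col3a1 the ratios were 0.890 (0.848 to 0.933) and 2.03 (1.98 to 2.08), and for Col1a2 1.16 and 2.81. Col8a1, by contrast, was at least 27.9-fold higher in FTOC, where group 0 had no UMI and was set to 3, and 73.7-fold in ORFTOC. The 84 FTOC UMIs of Col8a1 came from 3 cells. Only 12 of these UMIs lay in the 50 FTOC cells with Xist and no Y-linked RNA. The rest lay among the FTOC cells with Y-linked RNA only (3 cells) or with neither (2 cells), all of them in group 1. Col6a4 was 0.281 and 0.246.

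Read the other way, the comparison of pools ran in opposite directions in the 2 groups for the main fibrillar genes. Col1a1 in group 0 stood at 5892 CPM in FTOC and 3532 CPM in ORFTOC (ratio 0.599, 0.573 to 0.627), and in group 1 at 7149 and 10778 CPM (1.51, 1.46 to 1.56). Col3a1 stood at 7556 and 4626 CPM in group 0 (0.612, 0.589 to 0.637) and at 6721 and 9368 CPM in group 1 (1.39, 1.34 to 1.45). Col1a2 had ratios of 0.565 and 1.37. With 1 sample per pool this difference was not tested. For other members the ratio was under 1 in both groups. Col4a1 had ratios of 0.543 and 0.451, Col4a2 0.555 and 0.503, Col18a1 0.234 and 0.367, Col6a6 0.319 and 0.401 and Col6a4 0.539 and 0.471. Col7a1 went opposite ways, at 88.8 CPM in FTOC and 24.3 CPM in ORFTOC in group 0 (0.273, 0.174 to 0.428) and at 2.05 CPM, from 1 UMI, and 22.3 CPM in group 1 (10.8, 1.88 to 434). Col4a5 stood at 31.0 and 9.82 CPM in group 0 (0.317, 0.149 to 0.682) and at 12.3 and 16.4 CPM in group 1 (1.33, 0.570 to 3.81). Col26a1 was lower in ORFTOC in group 0 (198 and 66.4 CPM, 0.335) and not in group 1 (24.7 and 34.2 CPM, 1.39, 0.761 to 2.78). Summed over all members, collagens made up 3.26% and 1.89% of group 0 UMIs in FTOC and ORFTOC, and 3.49% and 3.94% of group 1 UMIs.

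**Figure D5:**
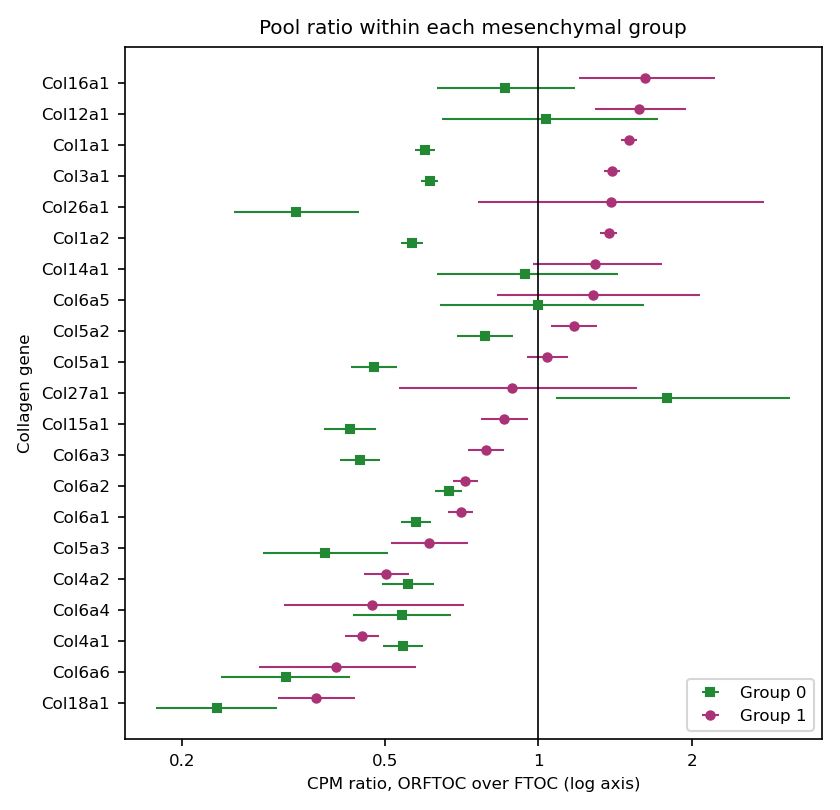
Ratio of ORFTOC over FTOC CPM (horizontal, log axis) of collagen genes within mesenchymal group 0 (green squares) and group 1 (purple circles), with 95% counting intervals. Col1a1, Col3a1, Col1a2 and Col5a2 lie left of 1 in group 0 and right of it in group 1, while Col4a1, Col4a2, Col18a1, Col6a4 and Col6a6 lie left of 1 in both.

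Epithelial cells had their own collagen pattern, led by type IV. Col4a1 stood at 138 CPM in FTOC and 90.6 CPM in ORFTOC (ratio 0.659, 0.615 to 0.706) and Col4a2 at 70.7 and 43.9 CPM (0.620, 0.562 to 0.684), both above their free RNA levels of 42.4 and 21.1 CPM. Col18a1 stood at 69.3 and 30.4 CPM (0.439, 0.393 to 0.490), against 10.5 CPM in free RNA. Col12a1 (46.7 and 42.1 CPM, ratio 0.903, 0.808 to 1.01) and Col6a1 (37.6 and 41.6 CPM, 1.11, 0.984 to 1.25) had intervals that included 1 over all epithelial cells, but not within every cluster given below. Col27a1 was higher in ORFTOC, at 66.4 CPM (62.6 to 70.4) against 17.9 CPM (15.6 to 20.4), a ratio of 3.71 (3.22 to 4.31), and so was Col6a2, at 42.7 and 20.7 CPM (2.06, 1.79 to 2.39). Col6a1 and Col6a2 lay near or under their free RNA levels of 42.7 and 46.3 CPM. With 7 members past the filter, 2 were at least 2-fold higher (2.52% of 6672 genes) and 1 at least 2-fold lower (1.15%).

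The epithelial pools differed in their makeup, so the ratios are also given within clusters. In FTOC 735 of 962 epithelial cells lay in the early medullary TEC-like cluster, led by Ccl21a, Krt14 and Krt5, and 38 in the cortical TEC-like cluster, led by Tbata, Prss16 and Ctsl. In ORFTOC 524 of 1227 cells were medullary TEC-like, 383 lay in the airway-like cluster led by Bpifa1 and 272 were cortical TEC-like. Col27a1 was highest in the cortical TEC-like cluster, at 202 CPM against 18.3 CPM in the medullary TEC-like cluster. Within the cortical TEC-like cluster it stood at 89.96 CPM in FTOC and 218 CPM in ORFTOC (2.43, 1.86 to 3.21), and within the medullary TEC-like cluster at 16.01 and 21.1 CPM (1.32, 1.04 to 1.67). Both ratios were under the pooled 3.71. Col6a2 stayed over 2-fold higher within the medullary TEC-like cluster (26.2 and 75.4 CPM, 2.88, 2.47 to 3.37) and within the airway-like cluster (5.33 and 32.1 CPM, 6.03, 2.98 to 14.2). In the medullary TEC-like, airway-like and cortical TEC-like clusters Col6a1 had ratios of 1.49 (1.31 to 1.69), 5.52 (2.73 to 13.0) and 1.06 (0.476 to 2.76). Col12a1 had ratios of 1.33 (1.16 to 1.52), 2.86 (1.31 to 7.41) and 0.533 (0.388 to 0.742) in the same order. The airway-like values rest on 8 FTOC UMIs of Col6a1 and 7 of Col12a1. Col18a1 was lower in ORFTOC within the medullary TEC-like cluster (88.7 and 51.9 CPM, 0.585, 0.516 to 0.662), and Col4a1 differed less there (165 and 151 CPM, 0.919, 0.850 to 0.995) than within the cortical TEC-like cluster (152 and 80.3 CPM, 0.527, 0.421 to 0.665). Col17a1 was mainly medullary TEC-like and stood at 4.31 and 11.9 CPM there (2.76, 1.87 to 4.14), and Col26a1 at 15.9 and 4.14 CPM (0.261, 0.170 to 0.388).

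The 25 cells of the tuft-like cluster, led by Gng13 and Gnat3, held Col16a1 at 52.7 CPM, Col9a3 at 32.6 CPM and Col4a4 at 27.6 CPM (11 UMIs in 8 cells). Cluster 14 (79 cells led by Il4i1, Krt17 and Utf1) was left unnamed and held Col12a1 at 63.6 CPM and Col14a1 at 38.8 CPM, the latter in 25 cells. Its Col5a3 UMIs came from 3 cells and its 17 Col2a1 UMIs from 1 cell, so these values describe single cells.

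Chains that build 1 protein were then set side by side. Col1a1 over Col1a2, the chains of type I collagen, gave 1.25 in FTOC and 1.38 (1.36 to 1.40) in ORFTOC mesenchymal cells. Col4a1 over Col4a2 gave 1.77 and 1.64 in mesenchymal and 1.94 and 2.07 in epithelial cells, and over the 4 larger epithelial clusters it ran from 1.49 in the cortical TEC-like to 2.63 in the airway-like cluster. In ORFTOC the mesenchymal (1.56 to 1.72) and epithelial (1.89 to 2.26) intervals did not overlap. In FTOC they did (1.63 to 1.91 and 1.79 to 2.11). The interval of the cortical TEC-like cluster (1.28 to 1.73) overlapped those of the mesenchymal cells of both pools. In epithelial cells Col1a1 over Col1a2 was 0.958 (0.517 to 1.77) and 1.24 (0.841 to 1.85), with intervals that included the mesenchymal values. Some pairs were further apart between compartments. Col6a3 over Col6a2 was 0.480 (0.451 to 0.511) and 0.438 (0.423 to 0.454) in mesenchymal cells but 0.0349 (0.0158 to 0.0673) and 0.0462 (0.0317 to 0.0651) in epithelial cells, while in free RNA it was 0.561 (0.435 to 0.720). The epithelial intervals, which cover counting error only, did not overlap that of free RNA. The part of free RNA in the epithelial UMIs of these genes was not tested. Col5a1 over Col5a2 was 1.44 and 1.09 in mesenchymal cells, 24.8 (10.3 to 77.7) in the cortical TEC-like cluster and 0.152 (0.0462 to 0.391) in the airway-like cluster. Col11a1 over Col11a2 was 19.0 and 77.3 in mesenchymal cells, from 2 and 3 UMIs of Col11a2, and 0.269 and 0.0312 in epithelial cells. Col8a1 over Col8a2 was 14 and 8.95 in mesenchymal and 0.0370 and 0.145 in epithelial cells. For type IX, whose chains are Col9a1, Col9a2 and Col9a3, the proportions differed between cell groups. Col9a2 had 86 UMIs in mesenchymal group 0 beside 1 of Col9a3, Col9a1 had 68 in the cortical TEC-like cluster beside 2 of Col9a3, and Col9a3 had 174 in the airway-like cluster beside 11 of Col9a1. The medullary TEC-like cluster held all 3, with 96, 129 and 141 UMIs, and mesenchymal group 1 held 7, 6 and 3. Col4a5 over Col4a6 was 8.03 and 7.57 in epithelial cells, and Col4a3 and Col4a4 had at most 14 UMIs in any pool of either compartment.

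Immune cells mostly lay far under the free RNA. Col1a1 stood at 4.55 CPM against 195 CPM in free RNA, and Col3a1 at 4.61 against 201 CPM. Col15a1 was less reduced, at 5.86 against 14.4 CPM. Its UMIs concentrated in the double-positive thymocyte-like cluster, led by Cd8b1, Rag1 and Dntt, at 26.9 CPM (22.0 to 32.6), from 105 UMIs in 98 cells with at most 2 per cell. The pools differed by less than counting error, with 27.0 CPM in FTOC and 26.8 CPM in ORFTOC. In that cluster Col15a1 over Col1a1 was 2.10 (1.49 to 3.003), whereas it was 0.0738 (0.0552 to 0.0969) in free RNA and 0.142 and 0.0766 in mesenchymal cells. Cluster 9, cycling cells led by Ube2c, Gzma and Dntt, held Col15a1 at 13.9 CPM (33 UMIs in 29 cells). In cluster 10, led by Il13 and Hs3st1, 17 UMIs of Col4a2 lay in 15 cells with none of Col4a1. Cluster 4, led by the parathyroid genes Pth and Chga and by histone genes, lay among the immune cells and held the most Col4a1 of them, 94 UMIs in 33 of 525 cells.

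Genes that make, cross-link, bind and degrade collagens were counted from lists. Over epithelial cells, mesenchymal cells were at least 2-fold higher for 15 of 16 biosynthesis genes past the filter, 6 of 10 genes of secretion and processing, 6 of 6 cross-linking genes, 4 of 5 receptors, 10 of 13 degradation genes and 28 of 34 other matrix genes, beside 12.7% of all genes. Among the genes at least 2-fold lower, a limit that 13.0% of all genes passed, were the receptor Ddr1 and the protease Ctsl. Between the pools, in mesenchymal cells, none of 17 biosynthesis genes was 2-fold apart, beside 1.15% of all genes higher and 2.33% lower. The median log2 ratio of ORFTOC over FTOC was -0.32 for these 17 genes and -0.09 for all genes. Serpinh1, the collagen chaperone, stood at 2217 CPM in FTOC and 2188 CPM in ORFTOC (ratio 0.987, 0.942 to 1.03), and P4hb at 958 and 910 CPM. The prolyl hydroxylase subunits P4ha2 and P4ha3 went against the median of the list, with ratios of 1.73 and 1.94. None of 10 secretion and processing genes passed the limit, with Pcolce, an enhancer of procollagen cleavage, at 1077 and 909 CPM and the protease Bmp1 at 460 and 302 CPM. Of 6 cross-linking genes, Lox, the lysyl oxidase, was higher in ORFTOC (152 and 308 CPM, 2.02, 1.71 to 2.41). None of 6 receptors passed. Of 13 degradation genes, the collagenase Mmp13 had no UMI in FTOC and 369 UMIs in ORFTOC, at least 25.7-fold higher, and Mmp3 stood at 212 and 448 CPM (2.11, 1.83 to 2.45).

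Among 32 other matrix genes 3 were at least 2-fold higher in ORFTOC (1.15% of all genes), Mfap4 (147 and 622 CPM, 4.23), Fbln5 (2.10) and Mfap5 (2.03). At least 2-fold lower (2.33% of all genes) were Lama2, a laminin chain (120 and 41.1 CPM, 0.341, 0.269 to 0.433), and Nid2, a nidogen (114 and 44.1 CPM, 0.386, 0.305 to 0.490). The median log2 ratio of the list was -0.16, and that of all genes -0.09. Sparc, a collagen-binding matrix protein, stood at 8203 and 8588 CPM and Dcn at 3978 and 2397 CPM. Of 9 genes with collagen-like domains but other names, C1qtnf3 was lower in ORFTOC (71.1 and 4.08 CPM, 0.0575).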

How the data were processed

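Gene expression, T cell receptor and hashtag libraries were deposited from 1 lane of the 10x Genomics 5′ kit; the T cell receptor lists were not used here. The deposited gene matrix held raw counts of UMIs per gene and barcode, unfiltered, with the hashtag counts in its last lines. The authors aligned the reads to mm10 with Cell Ranger 6.1.2 and used Seurat 4.2.0, per the submitters' processing notes. The header of the matrix names another major version of Cell Ranger.

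Cells with at least 600 genes and 0.4 to 10% mitochondrial UMIs were kept, as in the study (10245 of 705161 barcodes). HTODemux in Seurat 5.3.0 gave each cell its pool. It left 672 barcodes negative and 590 as doublets between pools, and 591 doublets within pools were removed by their share of such doublets among 50 neighbours. Counts were normalised with sctransform 0.4.2, cell cycle scores were regressed out, and 18 principal components were clustered at a resolution of 0.4 without the collagen genes. Clusters were named from marker lists. UMIs were summed per compartment and pool and expressed as CPM. Levels carry exact Poisson, shares Clopper-Pearson and ratios exact conditional binomial intervals. A count of 0 was set to 3 in ratios. A member was named with its values where its mean over the pools was at least 20 CPM in a compartment, with full statistics for the 10 highest mesenchymal and 6 highest epithelial members and for those at least 2-fold apart, and partner chains were named as ratios. Values for clusters, for other genes and for members under 20 CPM were not covered by this rule and were picked with the values in view. From each pathway list the 3 genes with the highest level or the largest or smallest ratio could be named. The members and lists were chosen with earlier results of these data known. The analysis of sums was tested on simulated data, with Poisson counts drawn for each gene around its mean level. Those data had no spread between cells or cultures, so the test cannot show how the intervals hold for real cells. The software was matplotlib 3.10.9, pandas 2.3.3, scipy 1.17.1 and numpy 2.4.6 under Python 3.11.15, and R 4.3.3. Gene coordinates and promoters came from RefSeq tables of GRCm38.p6, in which all 44 members matched. Alternatives to the clustering, filters, hashtag rule, doublet rule, free RNA and weight of cells were run.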

Additional observations from a re-analysis of the deposited data

Results flagged for a closer look

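For 4 fibrillar genes the ratio of ORFTOC over FTOC ran in opposite directions in the 2 mesenchymal groups, with intervals on either side of 1. The log2 ratio in group 1 minus that in group 0 was 1.33 for Col1a1, 1.28 for Col1a2, 1.19 for Col3a1 and 0.58 for Col5a2. Each value rests on 24 to 106 cells of 1 sample, and the differences were not tested. Only members with a mean of at least 20 CPM in both groups were considered, which left out Col7a1 (0.273 in group 0 and 10.8 in group 1, the latter on 1 FTOC UMI).

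Col6a2 was higher in ORFTOC among epithelial cells (2.06, 1.79 to 2.39) and lower among mesenchymal cells (0.705, 0.678 to 0.734), a difference of 1.55 in log2 ratio that was not tested.

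The 672 barcodes without a hashtag call were used in no comparison, and in 104 of them at least 1% of UMIs came from collagen genes, as in 253 of 267 mesenchymal, 0 of 2189 epithelial and 4 of 5936 immune cells. Collagens made up 15994 CPM of these barcodes. Among the 590 doublets between pools 28 barcodes reached 1%. When pools were assigned by a ratio of hashtag counts of at least 3, 306 ORFTOC and 54 FTOC mesenchymal cells were obtained in place of 212 and 55, so the number of ORFTOC mesenchymal cells depended on the hashtag rule.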

How the results depend on the processing

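No paired analysis was possible because each pool was 1 sample and no replicate numbers were shared. Of 92 recomputed summary values 60 stayed within their counting interval or within 1.5 times the count, 29 moved and 3 reversed. Of 98 values for named members 74 stayed, 23 moved and 1 reversed. The cause of a move was not tested. The groups, the TEC-like clusters and the cells without the Pth cluster were added after seeing the data.

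The mesenchymal log2 ratio of all collagens (-0.09) was -0.15 with compartments set by single cells, -0.11 with doublets kept, -0.12 without cells holding another compartment's defining gene, -0.15 with equal weight per cell, -0.38 without cells with at least 2 mural genes (3 FTOC and 40 ORFTOC cells left), -0.11 in cells with Xist only, -0.78 in group 0 and 0.17 in group 1. The epithelial ratio (-0.20) was -0.28 with equal weight, 0.031 in the medullary and 0.013 in the cortical TEC-like cluster. Col26a1 was 0.47 in group 1.

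In ORFTOC mesenchymal cells the members at least 2-fold higher (0) were 1 by single cells (Col8a1, with 1.61% of all genes), 2 by the hashtag ratio (Col12a1 and Col8a1, 1.5%), 1 without another compartment's defining gene (Col8a1, 1.5%) and 2 in cells with Xist only (Col12a1 and Col8a1, 1.49%). Those lower (5) were 12 without mural genes, where 22.9% of all genes were, 9 in group 0 (4.38% of all genes) and 10 with no filter (10.2%). Of these 5 members, Col4a1, Col18a1 and Col26a1 were not among the 12, and Col4a1 and Col6a4 not among the 9. The 10 included Col9a1 (7 UMIs in ORFTOC and 0 in FTOC) and Col28a1 (6 and 0). These were seen in ORFTOC only and were counted as lower because a count of 0 was set to 3. The share of 10.2% was counted in the same way. With no filter, 6 members were at least 2-fold lower in mesenchymal than in epithelial cells (0 with it), and 21.9% of all genes.

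The mesenchymal share of collagen UMIs (91.7%) was 90.8% by single cells, 92.7% by the hashtag ratio, 92.0% without another defining gene, 93.0% with free RNA subtracted, 83.4% with equal weight and 91.9% without the Pth cluster. The immune log2 ratio over free RNA (-4.32) was -3.23, -3.40, -4.67, -6.06, -3.44 and -4.57 in the same order, and -3.44 with doublets kept.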
